A study of Mus musculus with 16 samples.

Results

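The Dlx family was followed through every array of the series: Dlx1, Dlx2, Dlx3, Dlx4, Dlx5, Dlx6 and Dlx1as, the transcript antisense to Dlx1. Members were the probe sets that the platform annotation assigns to one of these genes alone, which gave 9 probe sets of 7 genes, out of 45101 probe sets and 18194 genes with a probe set of their own. The mutants were Erk2 fl/fl; Wnt1-Cre embryos, in which Cre made under the Wnt1 promoter removes the floxed kinase gene Erk2 in neural crest cells, and the controls were Erk2 fl/fl embryos without Cre, so both genotypes carried the floxed allele. The strain was C57BL/6J, and in the titles the controls appear as Wild-Type. Palate mesenchyme RNA was hybridised to Affymetrix arrays from 3 mutants and 3 controls at E13.5 and from 5 of each at E14.5, both counted in days of embryonic development. The design text names primary palatal cells as the material, and the extraction protocol names tissue. The oral epithelium, muscle fibres and vessel lining do not derive from neural crest and so keep Erk2, and the number of embryos in an array is not stated, so the p-values cover the spread between arrays alone, which may be technical.

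Dlx genes encode homeodomain transcription factors related to the Distal-less gene of flies. In mammals they lie in neighbouring pairs that are transcribed towards each other, Dlx1 with Dlx2, Dlx3 with Dlx4 and Dlx5 with Dlx6, and each pair shares enhancers. In the pharyngeal arches, where neural crest cells form the jaws and the palate, their nested expression sets upper against lower jaw identity: Dlx1 and Dlx2 are active in upper and lower jaw mesenchyme, and Dlx5 and Dlx6 mainly in the lower. Mice without Dlx2 or Dlx5 have cleft palate. Noncoding transcripts run antisense to the coding genes at these loci, among them Dlx1as and, at the Dlx5 and Dlx6 pair, Dlx6os1, whose RNA is best known in forebrain neurons. Dlx6os1 is not a member and is given beside Dlx6 as a transcript of the same locus.

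The starts of these genes differ in base composition. Those shown are of the members with a promoter entry and of Dlx6os1, which is given beside Dlx6. Of the 7 members, 2 had an entry in the RefSeq promoter table used (assembly GRCm38.p6), Dlx1 and Dlx2. Each sequence is the 250 bases before the transcription start, read 5′ to 3′ on the strand of the gene. The motifs were searched on both strands and matches are in capitals: TAATT, the core bound by homeodomain proteins, CACGTG, an E-box, TGANTCA, the AP-1 site, CCGGAA, the core of ETS sites, and CCAAT. Dlx1 (chr2:71529195-71529444, plus strand), Dlx2 (chr2:71546755-71547004, minus strand) and Dlx6os1 (chr6:6869534-6869783, minus strand) read as follows.
Dlx1: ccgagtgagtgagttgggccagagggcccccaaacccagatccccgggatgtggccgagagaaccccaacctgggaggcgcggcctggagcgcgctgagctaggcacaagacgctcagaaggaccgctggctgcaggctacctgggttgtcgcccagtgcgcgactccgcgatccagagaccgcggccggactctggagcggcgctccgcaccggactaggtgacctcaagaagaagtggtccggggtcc
Dlx2: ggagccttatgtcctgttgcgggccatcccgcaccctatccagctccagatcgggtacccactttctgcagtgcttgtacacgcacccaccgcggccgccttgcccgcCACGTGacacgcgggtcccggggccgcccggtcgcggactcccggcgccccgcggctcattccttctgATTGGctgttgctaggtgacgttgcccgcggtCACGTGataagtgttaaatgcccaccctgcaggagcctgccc
Dlx6os1: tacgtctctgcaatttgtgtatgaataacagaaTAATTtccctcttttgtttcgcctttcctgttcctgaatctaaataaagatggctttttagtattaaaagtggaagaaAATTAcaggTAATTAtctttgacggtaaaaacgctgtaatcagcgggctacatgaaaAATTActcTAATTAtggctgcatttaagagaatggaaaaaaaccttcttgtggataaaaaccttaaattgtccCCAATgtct
The Dlx1 and Dlx2 windows were rich in G and C (68.0% and 66.4%, against a median of 52.4% over 32851 windows of this length), and the Dlx6os1 window was poor in them (33.2%). The windows of Dlx6os2 and Dlx4os, other transcripts of Dlx loci, held 52.4% each and are not printed. The Dlx1 window held none of the 5 motifs. The Dlx2 window held CACGTG at 2 places, 142 and 42 bases before the start, and CCAAT once, on the reverse strand. The Dlx6os1 window held 7 matches of TAATT or its reverse complement AATTA, of which 2 pairs overlap as TAATTA, and CCAAT once. Over all windows 25.03% held TAATT, 6.02% CACGTG, 6.75% TGANTCA, 12.03% CCGGAA and 33.85% CCAAT. A second Dlx6os1 start in the table, at chr6:6861684-6861933, had 4 matches of TAATT or AATTA and is not printed. These matches describe the letters of the windows only.

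The deposited values are on the log2 scale, made by the authors with GCRMA per the submitters' processing notes. Arrays of a group correlated at 0.993 to 0.997 over the genes tested, and no 2 arrays held identical values. The median of an array ranged from 3.39 to 3.44 for E13.5 and from 1.63 to 1.66 for E14.5, so values of the 2 stages are not on one level. The E14.5 arrays are labelled as batch 1 (replicates 1 and 2 of each genotype) or batch 2 (replicates 3, 4 and 5), and no batch is labelled for E13.5. Xist read above the mean of Y-linked transcripts on all 6 arrays at E13.5, and on 3 of 5 mutants and 1 of 5 controls at E14.5. These arrays were called female, though a pool of embryos of both sexes could get the same call. Markers fixed for palatal mesenchyme, such as Osr2, Prrx1 and Twist1, had array means of 8.10 to 8.86 over the 11 of 12 that were tested. The deleted kinase gene was not analysed here.

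A gene was tested where its log2 value was 4 or more on at least 3 arrays, which kept 6 of the 7 members and 11116 genes in all. Dlx4 did not pass, and neither did the second probe set of Dlx3. Between genotypes no member passed an adjusted p of 0.05 at either stage (limma, Benjamini-Hochberg over all genes tested). At E13.5, 0 of 6 were called where 0.0990% of all genes were (11 genes), and at E14.5, 0 of 6 where 2.63% were (1.48% higher and 1.15% lower in mutants). With an unadjusted p under 0.05 there was 1 member of 6 at E13.5 (Dlx6), where 9.54% of all genes had one, and 3 of 6 at E14.5 (Dlx1as, Dlx3 and Dlx6), where 17.32% did. With each probe set tested on its own, 0 member probe sets were called at either stage, where 0.0606% and 1.24% of 19790 probe sets were. The effect of genotype was not called as different between the stages for any of the 6 (adjusted p from 0.61 to 0.97, with 0.117% of all genes called). For that comparison 0 of 6 members and 10.41% of all genes had an unadjusted p under 0.05.

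**Figure D1:**
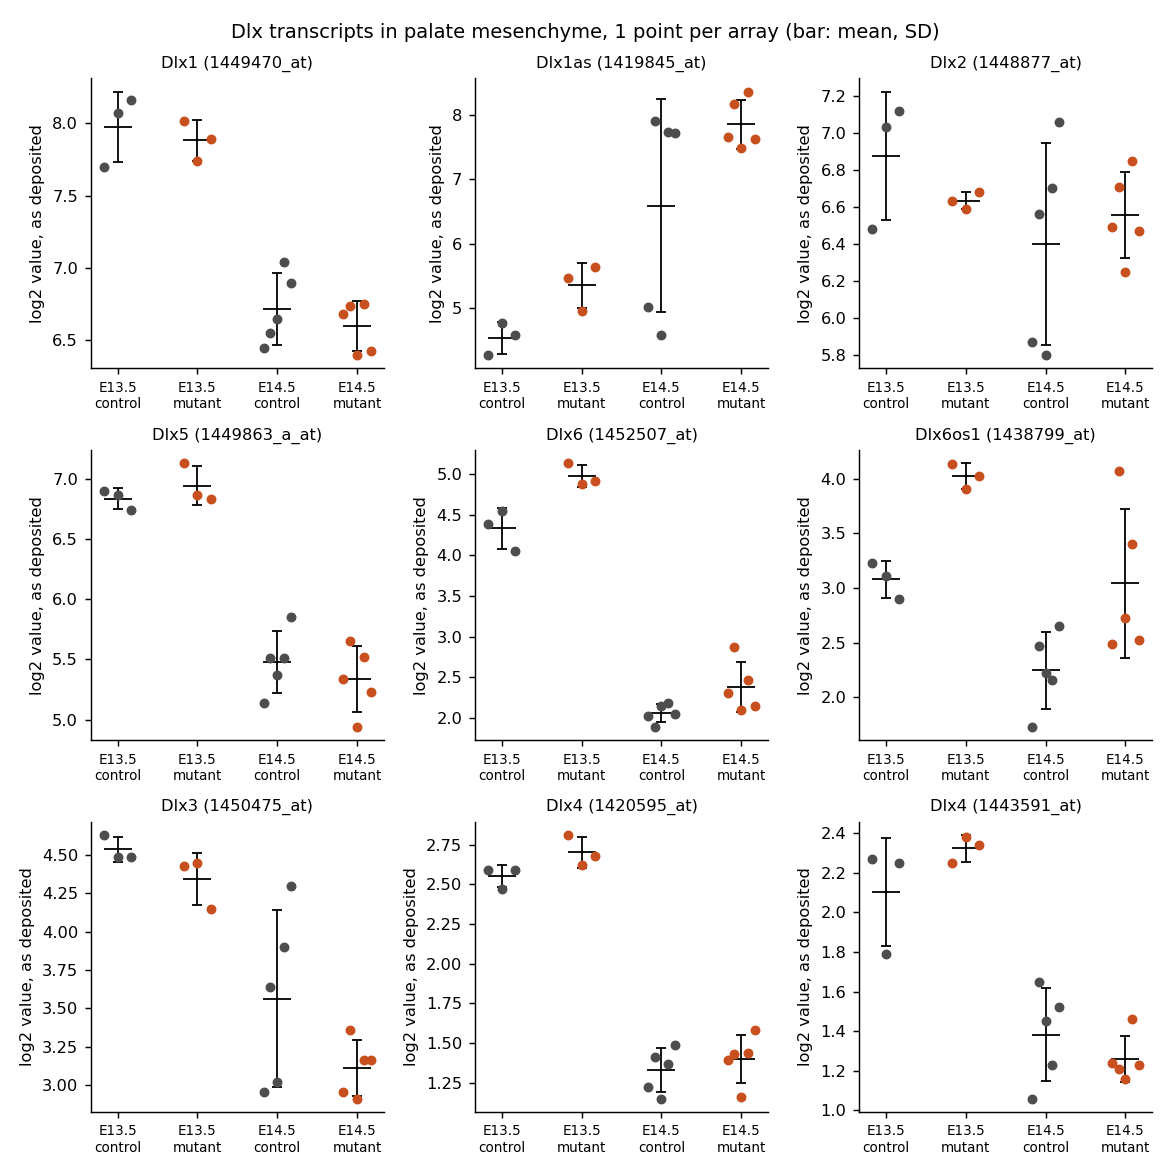
Deposited log2 values (vertical axes) of 8 member probe sets and of Dlx6os1 by stage and genotype, 1 point per array, with the mean and SD of each group as a bar. Dlx1as and Dlx6 lay higher in all 3 mutants than in all 3 controls at E13.5, as 4.32% of all genes did. The first Dlx4 probe set, which was not tested, and Dlx6os1 did so too, at values near or under the filter level. At E14.5, 2 of the 5 Dlx1as controls lay apart from the rest, at 5.01 and 4.58.

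**Figure D2:**
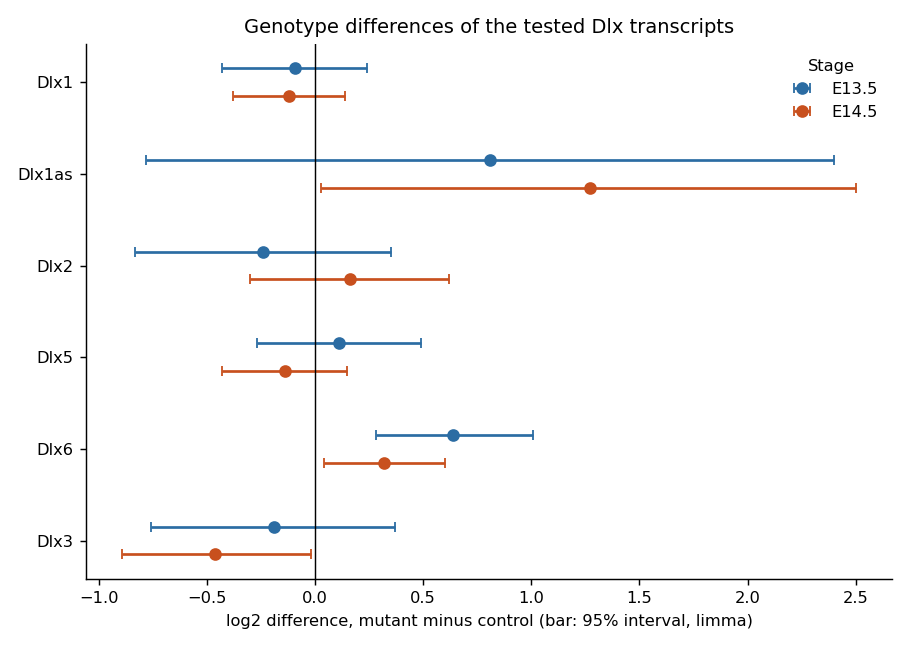
Difference in log2 value between mutants and controls (horizontal axis) of the 6 tested members at E13.5 and E14.5, with the 95% interval of the limma fit as a bar. The intervals of Dlx1 and Dlx5 span 0 at both stages and those of Dlx6 lie above 0 at both, before any adjustment over genes.

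In the first pair, Dlx1 itself differed little between genotypes. Dlx1 read 8.02, 7.74 and 7.89 in the E13.5 mutants and 7.70, 8.07 and 8.16 in the controls. At E14.5 it read 6.68, 6.74, 6.40, 6.75 and 6.43 in mutants and 6.45, 6.55, 6.65, 7.04 and 6.90 in controls. Both genotypes overlapped at each stage. The difference of Dlx1 was −0.09 ± 0.16 at E13.5 (SE, 95% interval −0.43 to 0.24, adjusted p = 0.89) and −0.12 ± 0.12 at E14.5 (−0.38 to 0.14, adjusted p = 0.66, limma). These intervals cover the spread between arrays alone, and a small change of Dlx1 in either direction stays within them. The E14.5 difference was 0.21 in batch 1, above the interval of the fit over both batches, and −0.34 in batch 2.

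Dlx2, the partner of Dlx1, overlapped between genotypes too. It read 6.63, 6.59 and 6.68 in the E13.5 mutants and 6.48, 7.03 and 7.12 in the controls, a difference of −0.24 ± 0.28 (−0.83 to 0.35, adjusted p = 0.83, limma). It was −0.44 without E13.5 control 1 and −0.12 without E13.5 control 3. At E14.5 the mutants read 6.49, 6.71, 6.25, 6.85 and 6.47 and the controls 5.87, 6.56, 5.80, 6.70 and 7.06. Controls 1 and 3 were the lowest of the 10 arrays and control 5 the highest, so the controls spread on both sides of the mutants. The E14.5 difference of Dlx2 was 0.16 ± 0.21 (−0.30 to 0.62, adjusted p = 0.76), and it was 0.39 in batch 1 and 0.00 in batch 2.

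Dlx1as, the antisense transcript, had the widest spread of the members. The E13.5 mutants read 5.46, 4.96 and 5.64 and the controls 4.27, 4.76 and 4.58, so that all mutants lay above all controls, as 4.32% of all genes did. The difference of Dlx1as was 0.81 ± 0.74 (−0.78 to 2.40, adjusted p = 0.78, limma), larger than the spread within these 6 arrays (SD 0.35 and 0.25) but not than the spread the fit takes from all 16. The adjusted p was 0.2 in a fit of the E13.5 arrays alone and 0.3 without E14.5 controls 1 and 3 (limma), so neither passed. The exact permutation test gave p = 0.10, the smallest that 3 against 3 arrays allow. At E14.5 the mutants read 7.65, 8.16, 7.49, 8.36 and 7.62 and the controls 5.01, 7.91, 4.58, 7.73 and 7.72. Of the controls, 3 lay within the range of the mutants, and controls 1 and 3 lay more than 2 log2 units below every other E14.5 array. At E14.5 Dlx1as averaged 7.86 ± 0.38 over the 5 mutants and 6.59 ± 1.65 over the 5 controls (SD). That is a difference of 1.27 ± 0.58 or 2.41-fold (0.03 to 2.50 on the log2 scale, adjusted p = 0.28, limma). Only 7 of the 11116 genes had a larger rise at E14.5, and 1793 had a smaller p. The two-sided exact permutation test gave p = 0.17, and p = 0.22 with arrays exchanged only within their batch.

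The Dlx1as difference at E14.5 rested on controls 1 and 3, one in each batch. It was 0.79 without control 1, 0.71 without control 3 and 0.06 (adjusted p = 0.90) without both, and 1.45 in batch 1 and 1.15 in batch 2. Without control 2, 4 or 5 it was 1.57 to 1.69. The same 2 arrays carried the low end of other genes. Skeletal muscle markers (7 of 8 tested, among them Myod1 and Myog) had a mean of 6.17 and 6.08 in controls 1 and 3, 7.22 to 7.51 in the other controls and 6.81 to 8.22 in the mutants, and none of the 7 was called. Leaving out the 2 lowest controls by itself shrinks a difference, and these arrays were singled out because earlier results showed them low in muscle genes. The part of tissue composition in the Dlx1as values was not tested, and fewer cells of a type and less RNA per cell cannot be told apart in such samples.

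**Figure D3:**
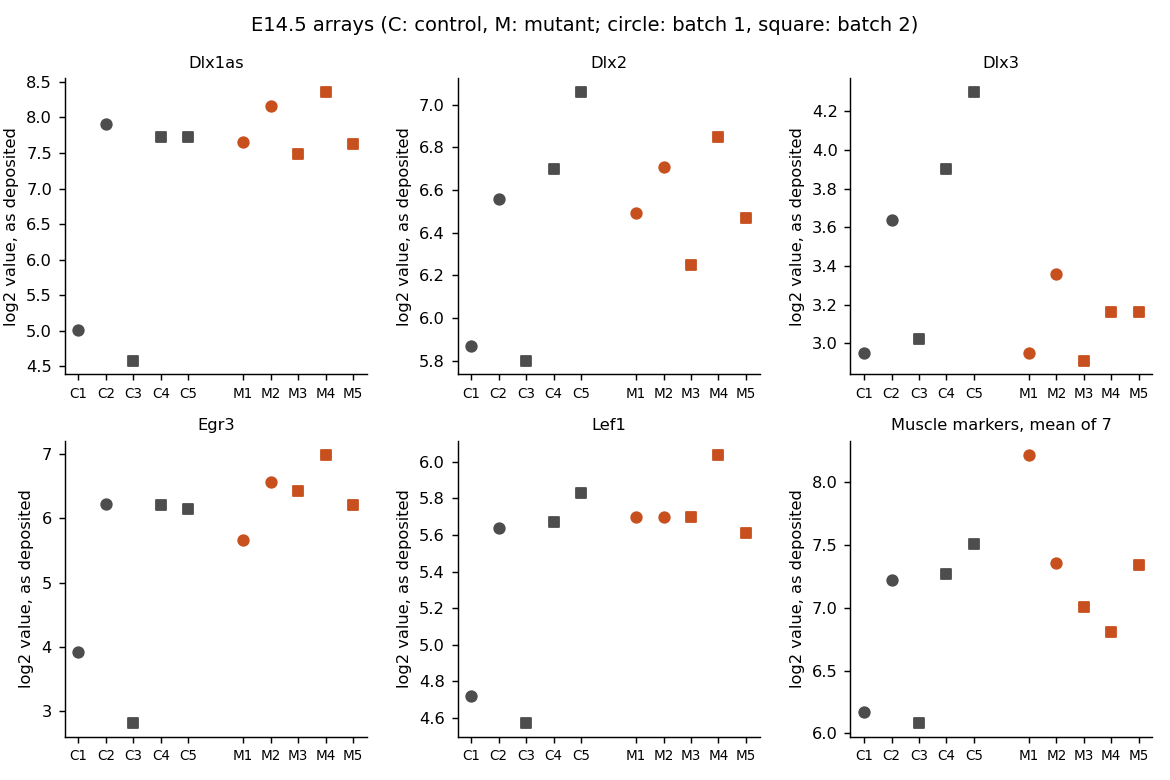
Deposited log2 values (vertical axes) on each E14.5 array, controls C1 to C5 and mutants M1 to M5, for Dlx1as, Dlx2, Dlx3, Egr3, Lef1 and the mean of 7 skeletal muscle markers; circles are batch 1 and squares batch 2. C1 and C3 are the lowest arrays in the panels of Dlx1as, Dlx2, Egr3, Lef1 and the muscle markers, and in the Dlx3 panel they lie with the mutants.

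In the second pair, Dlx6 had the smallest p of the members at E13.5. The mutants read 5.13, 4.88 and 4.91 and the controls 4.39, 4.55 and 4.05. All mutants lay above all controls, as 4.32% of all genes did. Dlx6 was 1.56-fold higher in E13.5 mutants, a difference of 0.64 ± 0.17 on the log2 scale (0.28 to 1.01, adjusted p = 0.24, limma), which did not pass. Of all genes 91 had a smaller p and 35 a larger rise. Leaving out any one array at E13.5 gave 0.50 to 0.75, and the exact permutation p was 0.10. At E14.5 Dlx6 lay close to the array medians. The mutants read 2.31, 2.87, 2.10, 2.47 and 2.14, and the controls read 2.02, 1.89, 2.15, 2.18 and 2.05. Those groups overlapped, as for all members at that stage, where 4.41% of all genes did not. The E14.5 difference of Dlx6 was 0.32 ± 0.13 (0.04 to 0.60, 1.25-fold, adjusted p = 0.23, limma), and it was 0.64 in batch 1, 0.11 in batch 2 and 0.19 without mutant 2. The exact permutation p of Dlx6 at E14.5 was 0.048, or 0.43 adjusted over the 9 member probe sets, and 0.10 within batches.

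Dlx6os1, the noncoding transcript of this locus, is given by its values alone. It reached the filter level of 4 on 3 arrays, all of them mutants, so it entered the fit only through the genotype in which it was high, and no test is given. The E13.5 mutants read 4.14, 3.91 and 4.03. The E13.5 controls read 3.23, 3.11 and 2.90, all under the array medians, so no fold is given either. At E14.5 the mutants read 2.49, 4.07, 2.73, 3.40 and 2.52 and the controls 1.73, 2.47, 2.22, 2.16 and 2.65. Mutants 2 and 4 were the highest, and the other 3 mutants lay near the highest controls.

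Dlx5, which acts in bone and lower jaw formation, did not share the pattern of its partner. Dlx5 read 7.13, 6.87 and 6.83 in the E13.5 mutants and 6.90, 6.87 and 6.74 in the controls. At E14.5 it read 5.34, 5.65, 4.94, 5.52 and 5.23 in mutants and 5.14, 5.51, 5.37, 5.51 and 5.85 in controls. Both stages overlapped. The difference of Dlx5 was 0.11 ± 0.18 at E13.5 (−0.27 to 0.49, adjusted p = 0.89) and −0.14 ± 0.14 at E14.5 (−0.43 to 0.15, adjusted p = 0.65, limma). Whether the differences of Dlx5 and Dlx6 differ from each other was not tested.

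Marker lists of other cell types are given for E13.5. Dlx1as and Dlx6 lay above the controls in all 3 mutants there, as 4.32% of all genes did. Dlx3 lay below the controls in all 3, as 13.5% did. No marker of the lists named next passed the test at that stage. Skeletal muscle markers were higher in 7 of 7 tested, with array means of 7.88 to 8.24 in mutants and 7.24 to 7.56 in controls. Cartilage markers were higher in 5 of 5 (6.30 to 6.64 against 5.51 to 6.38) and neuron markers in 6 of 7 (4.89 to 5.99 against 4.96 to 5.21). Palatal mesenchyme markers were lower in 11 of 11 (8.57 to 8.65 against 8.70 to 8.86), with a median of −0.12. Of all genes tested only 31.5% were higher in E13.5 mutants, with a median of −0.04, so a lower value was the more common direction. Osteoblast markers were lower in 6 of 6, with a median of −0.62 and array means of 4.57 to 5.11 in mutants and 5.37 to 5.67 in controls. Of the 7 markers of forebrain GABA neurons, the cells in which Dlx genes and Dlx6os1 are best known, only Lhx6 was tested, at −0.43. Gad1, Gad2, Slc32a1 and Sp8 were under the filter, while Lhx6 read 7.10 to 7.51 in mutants and 7.48 to 8.01 in controls. Lhx6 alone is therefore not a reading of these neurons here. The part of these markers in the Dlx values was not tested.

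In the third pair, Dlx3, known from skin, tooth, placenta and bone, was lower in mutants without passing the test. Dlx3 read 4.43, 4.45 and 4.15 in the E13.5 mutants and 4.63, 4.49 and 4.49 in the controls, all mutants below all controls, as for 13.5% of all genes. That difference was −0.19 ± 0.26 (−0.76 to 0.37, adjusted p = 0.86, limma). At E14.5 the mutants read 2.95, 3.36, 2.91, 3.16 and 3.16 and the controls 2.95, 3.64, 3.02, 3.90 and 4.30. Controls 2, 4 and 5 lay above every mutant, and controls 1 and 3 lay among the mutants. The E14.5 difference of Dlx3 was −0.46 ± 0.20, or 0.729 times the control level (−0.89 to −0.02, adjusted p = 0.27, limma), at −0.14 in batch 1 and −0.66 in batch 2. Without controls 1 and 3 it was −0.83 and passed (adjusted p = 0.012), where the whole series had 201 genes called. These were the 2 lowest controls for Dlx3, so leaving them out by itself enlarges a deficit in mutants. It was −0.61 without control 1, −0.62 without control 3 and −0.27 without control 5. Osteoblast markers were lower in 6 of 6 tested at E14.5, of which 4 fell (array means of 7.46 to 8.27 in mutants and 8.18 to 8.70 in controls). Oral epithelium markers were higher in 12 of 12, of which 6 rose (7.74 to 7.98 against 7.33 to 7.51). Of all genes tested 56.0% were higher in E14.5 mutants, and 1.48% were called as higher and 1.15% as lower. Of 5 tooth germ markers only Ambn, which encodes an enamel matrix protein, was tested, and it fell by 1.05 ± 0.21 (adjusted p = 0.021, limma). It read 3.99 to 4.89 in mutants and 4.94 to 5.88 in controls. Amelx, Enam and Sp6 were under the filter, so Ambn alone is not a reading of tooth germ here. The part of these markers in the Dlx3 values was not tested.

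The other probe set of Dlx3 and both probe sets of Dlx4, a gene of placenta and the visceral arches, stayed low. The second Dlx3 probe set read 3.07 to 3.46 on the E13.5 arrays and 1.22 to 1.68 on the E14.5 arrays. The first Dlx4 probe set read 2.81, 2.62 and 2.68 in E13.5 mutants and 2.59, 2.47 and 2.59 in controls. All mutants lay above all controls there, as for 4.32% of all genes tested. At E14.5 this probe set read 1.15 to 1.58. The second Dlx4 probe set read 1.79 to 2.38 on the E13.5 arrays and 1.06 to 1.65 on the E14.5 arrays. All values of these 3 probe sets lay under the filter level, near or below the array medians, so they carry no genotype comparison beyond exact permutation tests (p from 0.10 to 0.67). The 2 probe sets of Dlx3 differed in sign at E13.5 (−0.19 and 0.09).

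Between stages the deposited values of 5 of 6 members were called as different in both genotypes, where 86.5% of all genes were called in controls (11.6% higher and 74.9% lower at E14.5) and 85.4% in mutants (13.4% and 72.0%). A stage call is thus near the background for any gene. The median of all genes fell by 0.63 in controls and by 0.56 in mutants, and the stage of an array cannot be told apart from the level of its normalization. Dlx1, Dlx3, Dlx5 and Dlx6 were lower at E14.5 and Dlx1as was higher, while Dlx2 was not called (−0.48 ± 0.25 in controls, adjusted p = 0.083, and −0.08 ± 0.25 in mutants, adjusted p = 0.76, limma). In controls 5 alternatives did call Dlx2 as lower at E14.5 (limma): −0.68 without E13.5 control 1 (adjusted p = 0.033), −0.65 without E14.5 control 5 (0.015), −0.66 with batch 1 alone (0.017), −0.61 with array weights (0.016) and −0.48 with a replicate block (0.031). Directions of Dlx1, Dlx2, Dlx3 and Dlx5 depended on the scaling. With each array centred on its median these 4 were higher at E14.5 in both genotypes (0.18 to 1.71), on a scale that moved the median of all genes to 1.12 in controls and 1.23 in mutants. With quantile normalization over the 16 arrays (medians of −0.08 and −0.06), Dlx2 and Dlx3 were above 0 and Dlx1 and Dlx5 below.

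Dlx1as was higher and Dlx6 lower at E14.5 under all 3 scalings. Dlx1as rose by 2.05 ± 0.66 in controls (4.14-fold, adjusted p = 0.0097, limma) and by 2.50 ± 0.66 in mutants (5.67-fold, adjusted p = 0.0027) as deposited, by 3.33 and 3.32 with quantile normalization and by 3.80 and 4.29 with centred arrays. In order of level Dlx1as ran from E13.5 controls (4.54 ± 0.25) over E13.5 mutants (5.35 ± 0.35) and E14.5 controls (6.59 ± 1.65) to E14.5 mutants (7.86 ± 0.38). E14.5 controls 1 and 3, at 5.01 and 4.58, lay within the range of the E13.5 arrays as deposited, and the other 8 E14.5 arrays lay above every E13.5 array. As a rank within the array these 2 controls stood at percentiles 74.0 and 71.6, against 59.3 to 72.5 on the E13.5 arrays, so that by rank control 1 was above all of them. As a rank within the array, the mean place of the Dlx1as probe set went from percentile 61.6 to 83.9 in controls and from 69.4 to 91.4 in mutants. Dlx6 fell by 2.27 ± 0.15 in controls and by 2.59 ± 0.15 in mutants as deposited (adjusted p = 1.6e-09 and 3.5e-10). It was at −0.49 and −1.03 with quantile normalization and at −0.52 and −0.80 with centred arrays. The size of the Dlx6 difference is uncertain since its E14.5 values lay near the array medians, and its mean rank went from percentile 59.8 to 55.4 in controls and from 65.9 to 58.2 in mutants.

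**Figure D4:**
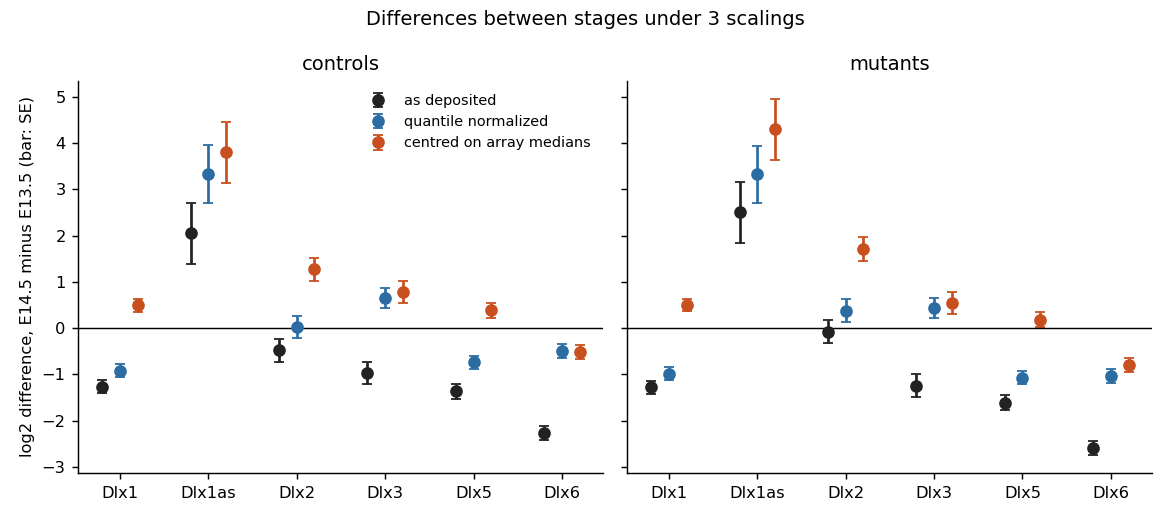
Log2 difference between E14.5 and E13.5 (vertical axis) of the 6 tested members in controls and mutants, with the SE of the limma fit as a bar, for the values as deposited, after quantile normalization and after centring each array on its median. Dlx1as is above 0 and Dlx6 below 0 in each of the 6 estimates, and the other members change sign with the scaling in at least one genotype.

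Members were also compared with each other and with all genes tested by the correlation of their array values after the group and batch means were taken off, over 16 arrays that share these means and, within a stage, one normalization. Dlx1as and Dlx2 had r = 0.88, which was 0.66 over the 14 arrays without E14.5 controls 1 and 3. Dlx1as and Dlx3 went from 0.83 to 0.06 without them, and Dlx2 and Dlx3 from 0.82 to 0.44. Those 3 correlations therefore rested in different degree on the same 2 arrays. Dlx1 and Dlx2 had r = 0.73 (0.77 without them), Dlx5 and Dlx6 0.64 (0.75), and Dlx3 and Dlx5 0.79 (0.84). Dlx1 and Dlx1as, which overlap on the chromosome, had r = 0.53 (0.57). Among members of different pairs, Dlx2 and Dlx5 had 0.68 (0.59) and Dlx1 and Dlx5 0.61 (0.49). The lowest values were those of Dlx6 with Dlx1as at 0.09 (0.50), with Dlx2 at 0.16 (0.35) and with Dlx3 at 0.27 (0.60). Whether partners correlate more than other genes was not tested.

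Outside the family, the genes most like Dlx1as were Egr3 (r = 0.959, and 0.872 without controls 1 and 3), an immediate early zinc finger factor, Lef1 (0.920 and 0.668), a WNT pathway transcription factor, and Cbln1 (0.910 and 0.400), a secreted synaptic protein. Egr3 read 3.92 and 2.81 in E14.5 controls 1 and 3, 6.15 to 6.22 in the other controls and 5.66 to 6.99 in the mutants. Its difference at E14.5 was 1.31 (adjusted p = 0.26). Lef1 read 4.72 and 4.57 in controls 1 and 3, 5.64 to 5.83 in the other controls and 5.61 to 6.04 in the mutants. Since these genes were chosen for their likeness to Dlx1as over arrays whose spread came largely from controls 1 and 3, their low values there follow from the choice. The genes most like Dlx2 were Klhl24 (0.940 and 0.866), Lef1 (0.933 and 0.803) and Pde4b (0.918 and 0.862), a phosphodiesterase. Second values are again without controls 1 and 3. The nearest to Dlx1 were Stx18 (0.903 and 0.881), Mpped1 (0.893 and 0.915) and Trpm4 (0.857 and 0.867). Those nearest to Dlx3 were Ccm2 (0.904 and 0.794), Mmp9 (0.895 and 0.730) and Cdkn2aip (0.893 and 0.687). Dlx5 was most like Barx2 (0.895 and 0.843), Rbl2 (0.894 and 0.845) and Mmp9 (0.882 and 0.897), a matrix metalloproteinase. Dlx6 was most like Snx4 (0.895 and 0.935), Rassf3 (0.881 and 0.881) and Dnajc12 (0.866 and 0.922). All these genes were picked as the most correlated among the named genes tested, so high values follow in part from the choice. Whether they exceed what such a choice gives by itself was not tested. None of these like genes was called between genotypes at E14.5 (adjusted p from 0.069 for Mmp9 to 0.98 for Klhl24).

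Genes known to act upstream of Dlx genes in the jaw, such as those of endothelin 1 signalling and BMP ligands, were mostly not called. Of 16 listed, 12 were tested. At E13.5 none passed (median −0.04, against −0.04 over all genes tested). At E14.5 only Mef2c, a transcription factor acting downstream of the endothelin receptor, fell, by 0.35 ± 0.06 (adjusted p = 0.014, limma). The E14.5 list median was −0.04, against 0.01 over all genes, of which 1.15% fell. The ligand Edn1 was at 0.03 ± 0.14 and −0.15 ± 0.10 at the 2 stages. Others did not pass: Bmp2 at −0.33 ± 0.12 and Shh at 0.25 ± 0.08 at E14.5, and Foxc1 at 0.28 ± 0.13 at E13.5.

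Genes downstream of or working with Dlx proteins were 24, of which 16 were tested. None passed at E13.5, where the list median was −0.13, against −0.04 over all genes tested. At E14.5, 2 rose and 1 fell, where 1.48% of all genes rose and 1.15% fell. The E14.5 list median was −0.01, against 0.01 over all genes. Pitx1, a hindlimb and lower jaw homeobox factor, rose by 0.50 ± 0.12 and the nuclear receptor Nr2f2 by 0.38 ± 0.09 (both adjusted p = 0.045, limma). Sp7, the osteoblast transcription factor, fell by 0.70 ± 0.14 (adjusted p = 0.020). Of those that did not pass, Ibsp (bone sialoprotein) was at −1.31 ± 0.41 and Prrx2 at −0.20 ± 0.05 at E13.5, Prrx1 at −0.20 ± 0.06 at E14.5, and Foxl2 at 0.35 ± 0.15 and 0.36 ± 0.12 at the 2 stages. Msx1, whose protein can bind Dlx proteins, was at −0.34 ± 0.25 and −0.05 ± 0.19. Of the forebrain targets, Gad1 and Gad2 were under the filter. The genes next to the pairs by position that were tested, Metap1d beside Dlx1 and Dlx2 (−0.09 ± 0.09 and 0.00 ± 0.07) and Itga3 beside Dlx3 and Dlx4 (0.14 ± 0.13 and 0.15 ± 0.10), did not pass at either stage.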

How the data were processed

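The deposited table holds log2 expression values of 16 Affymetrix arrays, made by the authors with GCRMA per the submitters' processing notes; its version and settings are not stated there. The platform annotation gave 1 gene for 34958 of 45101 probe sets and several for 932. For a gene with several probe sets the one with the highest mean was used, and genes with 3 arrays or more at 4 or above were tested. One fit with limma 3.58.1 in R 4.3.3 held all 16 arrays, with 4 groups and a batch term for E14.5, and p-values were adjusted over 11116 genes. Single probe sets had two-sided exact permutation tests (scipy, Python 3.11.15), adjusted over 9 probe sets. The script was tested on simulated arrays. Named genes were every member, the 3 genes most correlated with each tested member, listed pathway genes that passed with up to 4 others per role by p, and the nearest neighbours of each pair. Msx1 and Edn1 are named besides, for their role. The members, the lists and the exclusion of E14.5 controls 1 and 3 were chosen with earlier results of these data known. Precision is limited by the number of arrays.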

Additional observations from a re-analysis of the deposited data

Results flagged for a closer look

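In 20 groups of 5 arrays checked for a stray array (9 member probe sets and Dlx6os1 in each E14.5 genotype), 1 had its highest value far from the others: the second Dlx4 probe set in E14.5 mutants, where mutant 4 read 1.46. Chance flags about 1 in 20 such groups. That value lies below the array medians of 1.63 to 1.66 and under the filter.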

How the results depend on the processing

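No member passed between genotypes under the alternatives tried, which covered the filter, probe set choice, scaling, batch, variance model, sex, the beta-actin end signal and leaving out single arrays, except that without E14.5 controls 1 and 3 the E14.5 count was 1 (Dlx3). Dlx6 at E13.5 came near the threshold at 0.84 with quantile normalization (adjusted p = 0.055, limma). It was at 0.59 with array weights (adjusted p = 0.097) and at 0.64 with a replicate block (adjusted p = 0.40). With the beta-actin signal as a term it was at 0.62 (adjusted p = 0.58, limma). It was at 0.68 without E13.5 mutant 3 (adjusted p = 0.68) and at 0.50 without E13.5 control 3 (adjusted p = 0.64). With a filter at log2 6, 3 members were called between stages in controls and 3 in mutants, since Dlx3 and Dlx6 were no longer tested.

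Centred arrays turned the stage differences positive: in controls Dlx1 0.49, Dlx2 1.27, Dlx3 0.78 and Dlx5 0.39, in mutants 0.50, 1.71, 0.55 and 0.18. The difference of the Dlx1 effects between stages became 0.01. With quantile normalization Dlx2 was at 0.03 and Dlx3 at 0.65 in controls, at 0.38 and 0.44 in mutants, and the difference of the Dlx1as effects at −0.01. In batch 1 alone the E14.5 effects of Dlx1 and Dlx5 were 0.21 and 0.17, and the differences of the effects of Dlx1, Dlx3 and Dlx5 were 0.30, 0.05 and 0.06. With the beta-actin signal as a term Dlx2 at E13.5 was 0.03. Without E14.5 controls 1 and 3 Dlx2 at E14.5 was −0.21 and the difference of the Dlx1as effects −0.75. Leaving out each array in turn gave −0.02 to 0.33 for Dlx2 at E14.5, −0.15 to 0.01 for Dlx2 between stages in mutants, −0.12 to 0.11 for the difference of the Dlx1 effects and −0.10 to 0.87 for that of the Dlx1as effects. The cause was not tested.

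The replicate numbers did not pair the arrays: deviations of same-numbered arrays had correlations from −0.17 to 0.17 for E13.5 and from −0.45 to 0.03 for E14.5. With a replicate block 0 members were called between genotypes, 6 between stages in controls (Dlx2 at −0.48) and 5 in mutants, and all genes called went from 11 to 6 at E13.5 and from 292 to 104 at E14.5.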
